A study of Mus musculus with 3 samples.

Results

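The genes examined here encode the cornified envelope and the surrounding program of terminal differentiation in keratinocytes, the epithelial cells of the epidermis. The list names 38 mouse genes, drawn up by function with earlier results of these data known: suprabasal keratins, envelope precursors, transglutaminases, proteins of the S100-fused filaggrin type, plakins, and secreted or protease-related proteins of the suprabasal layers. Of these, 37 had a row in the tables of 41214 gene identifiers. In at least 1 of the 3 libraries, 24 reached 1 CPM (counts after each library was brought to a common total of 1000000), as did 11865 genes in all. Flg, the filaggrin gene, had no row in those tables, so its RNA was not analysed here.

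RNA was sequenced from exponentially growing keratinocytes of the C57BL/6 strain, immortalised with SV40 in every group. The labels give 1 library each for ARPC4 ko, Nrf2-EGFP and wt. ARPC4 belongs to the Arp2/3 complex, the nucleator of branched actin networks. Nrf2 (gene Nfe2l2) is a transcription factor of antioxidant and detoxification genes, and the label joins its name to that of the fluorescent protein EGFP. The sample titles add the word Cre for ARPC4 ko and the word High for Nrf2-EGFP. The sources used here say no more on how each line was made, whether it is 1 clone, or which promoter was used. Per the series title, the study concerned Arp2/3 loss in epidermis, a skin disease resembling psoriasis, and activity of Nrf2.

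The cornified envelope is the protein shell that replaces the plasma membrane of dying keratinocytes at the skin surface. Keratinocytes leaving the basal layer switch on the keratins Krt1 and Krt10, then make scaffold plakins and involucrin, then loricrin and small proline-rich proteins. Transglutaminases crosslink these proteins, and proteases and their inhibitors govern processing and shedding. Many of the precursor genes lie side by side in the epidermal differentiation complex, a cluster on mouse chromosome 3.

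Gene counts were 23033863 in ARPC4 ko, 25723959 in Nrf2-EGFP and 22924294 in wt. Arpc4 itself had 61.0 CPM in the library labelled ARPC4 ko, 98.4 CPM in Nrf2-EGFP and 94.2 CPM in wt, and Nfe2l2 had 179 CPM in ARPC4 ko, 166 CPM in the library labelled Nrf2-EGFP and 225 CPM in wt. Neither gene passed the rule below, so the counts do not by themselves check the labels, and directions below are those between libraries so labelled. Of 10 markers of basal keratinocytes, 9 reached 1 CPM. Krt5 had 4260 CPM in ARPC4 ko, 6248 CPM in Nrf2-EGFP and 8997 CPM in wt, and Krt14 had 3249 CPM, 4932 CPM and 7378 CPM in the same order. Summed levels of 8 fibroblast markers were 4.36, 2.62 and 1.60 CPM in that order, of 8 immune markers 7.20, 5.63 and 5.74 CPM, and of 8 melanocyte markers 5.43, 2.21 and 3.47 CPM. Vim, the vimentin gene of the fibroblast list, had 68 counts in ARPC4 ko, 3 in Nrf2-EGFP and 12 in wt, and was 5.24-fold higher in ARPC4 ko than in wt (2.81 to 10.6) and 23.2-fold higher than in Nrf2-EGFP (7.6 to 115). Of those 3 lists, the fibroblast list had 5 of 8 markers at 0 counts in each library, the immune list 4, 5 and 5, and the melanocyte list 5, 4 and 6. The 8 endothelial markers summed to 54.2 CPM in ARPC4 ko, 63.2 CPM in Nrf2-EGFP and 27.7 CPM in wt, mostly Flt1 (51.8, 59.8 and 24.7 CPM), with 2, 1 and 2 of the 8 at 0 counts. The part of other cell types in the results below was not tested.

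With 1 library per genotype there is no replicate, so no p-value was computed and the variation between cultures is unknown. The rule counts a gene as higher or lower where its log2 fold, taken on CPM + 0.5, is 1 or more in size (2-fold) and the exact 95% interval for the ratio of the 2 counts leaves out 1. Ranges in parentheses are those intervals. They cover counting error only, and compare libraries rather than genotypes. Both comparisons with wt use the same wt library. In bulk RNA, fewer cells that express a gene and less of its RNA per cell cannot be told apart.

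Most of the measured differentiation genes had less RNA in ARPC4 ko than in wt, whereas the crosslinking enzyme Tgm1 had more. Of the 24 measured genes, 14 were lower and 1 was higher by the rule, beside 2.06% lower and 4.7% higher among the 11865 genes compared. Their median log2 fold was -1.37, against -0.01 for those 11865 genes. In Nrf2-EGFP against wt, 13 of the 24 were lower and 1 was higher, beside 2.05% lower and 3.57% higher among the genes compared, with medians of -1.09 and 0.00. Krt1, Krtdap, Crct1 and Rhov reached 1 CPM in wt alone, so they entered through the library in which they are high. Over the 34 listed genes with any count, unfiltered, the medians were -0.81 for ARPC4 ko and -0.54 for Nrf2-EGFP. Without Anxa1, by far the most counted of them, the members with a row summed to 661 CPM in ARPC4 ko, 850 CPM in Nrf2-EGFP and 1218 CPM in wt. In the same libraries the basal keratins Krt5 (2.11-fold, 2.1 to 2.13) and Krt14 (2.27-fold, 2.25 to 2.29) were also lower in ARPC4 ko than in wt. In Nrf2-EGFP they were 1.44-fold and 1.5-fold below wt, without passing the rule. These were the only 2 of the 9 measured basal markers to pass in ARPC4 ko, and 0 passed in Nrf2-EGFP. The median log2 fold of the 9 was -0.01 in ARPC4 ko and 0.25 in Nrf2-EGFP, where 7 of them lay above 0. Trp63, the master regulator of stratified epithelia, had log2 folds of 0.24 in ARPC4 ko and 0.29 in Nrf2-EGFP, and the hemidesmosome gene Itgb4 -0.01 and 0.29.

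**Figure D1:**
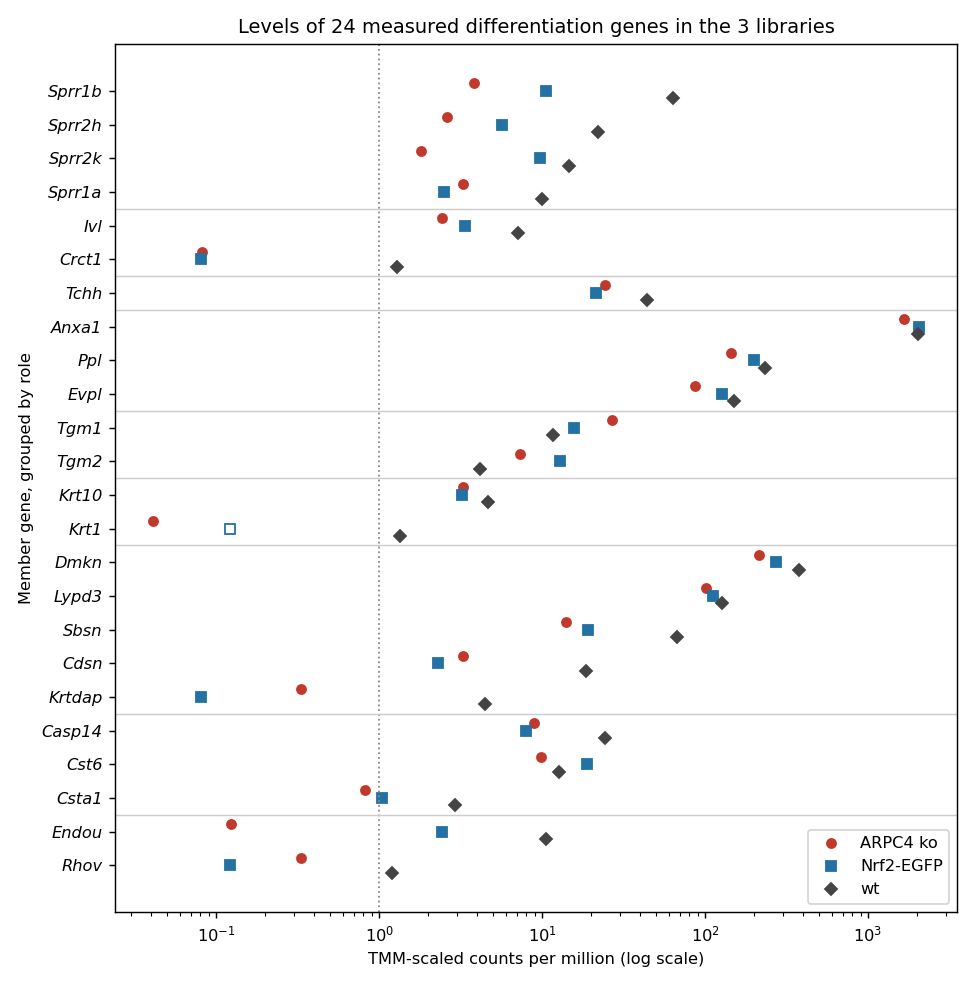
CPM after scaling (log axis) of the 24 measured genes in the ARPC4 ko (circle), Nrf2-EGFP (square) and wt (diamond) libraries, 1 point per library. Open symbols stand for 0 counts and are drawn at the limit that 0 counts allow, the dotted line marks 1 CPM, and grey lines separate roles. The wt point lies furthest right for the small proline-rich genes, whereas for Tgm1 and Tgm2 it lies furthest left.

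The small proline-rich proteins are flexible envelope precursors, joined to other precursors by transglutaminases. Their summed level was 11.6 CPM in ARPC4 ko, 28.7 CPM in Nrf2-EGFP and 110 CPM in wt, over 7 listed genes. Sprr1b (ENSMUSG00000048455, chromosome 3, 92436809 to 92438789 in mm10) had 3.83 CPM in ARPC4 ko, 10.5 CPM in Nrf2-EGFP and 63.4 CPM in wt. It had the most counts of the listed family members in each library. The lead was narrow in ARPC4 ko (93 counts, beside 80 for Sprr1a) and in Nrf2-EGFP (261, beside 240 for Sprr2k). The 3 libraries were far apart for Sprr1b. It was 16.6-fold lower in ARPC4 ko (13.4 to 20.7) and 6.04-fold lower in Nrf2-EGFP (5.29 to 6.92) than in wt. Sprr2h had 2.59 CPM in ARPC4 ko, 5.67 CPM in Nrf2-EGFP and 22.1 CPM in wt. It was thus 8.53-fold lower in ARPC4 ko (6.55 to 11.3) and 3.89-fold lower in Nrf2-EGFP (3.22 to 4.73). Sprr2 genes have been described as responsive to Nrf2 in mouse epidermis, among them Sprr2h and Sprr2d. Sprr2d had 0 counts in ARPC4 ko, 2 in Nrf2-EGFP and 6 in wt.

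The spacing of the libraries was different for Sprr2k and Sprr1a. Sprr2k had 1.81 CPM in ARPC4 ko, 9.66 CPM in Nrf2-EGFP and 14.5 CPM in wt. ARPC4 ko stood apart, 8.03-fold lower than wt (5.85 to 11.3), while Nrf2-EGFP lay 1.51-fold below wt (1.27 to 1.79) and did not pass the rule. Sprr1a had 3.29 CPM in ARPC4 ko, 2.50 CPM in Nrf2-EGFP and 9.92 CPM in wt, and was 3.01-fold lower in ARPC4 ko (2.32 to 3.94) and 3.97-fold lower in Nrf2-EGFP (2.99 to 5.35). The Sprr2 genes resemble each other closely, and reads that aligned to more than 1 place were not assigned to a gene, so the values of single Sprr2 genes are uncertain. Of the remaining listed family members, Sprr3 had 0 counts in each library. Sprr2a1 had 1 count in ARPC4 ko, 6 in Nrf2-EGFP and 4 in wt. Sprr2 genes outside the list of members are not part of the summed level above.

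Promoter sequence is shown for the 4 measured small proline-rich genes and for Ivl, because these neighbours in the cluster on chromosome 3 were lower in ARPC4 ko than in wt and have entries in the RefSeq promoter table (GRCm38.p6, the mm10 assembly). The 250 bases before each start site are written 5′ to 3′ on the strand of the gene. Capitals mark matches to the AP-1 motif TGANTCA and the antioxidant response element core TGACNNNGC, each on either strand, and to the TATA box TATAAA on the gene's strand. The windows are chr3:92485882-92486131 (minus strand) for Sprr1a, chr3:92438780-92439029 (minus) for Sprr1b, chr3:92385435-92385684 (plus) for Sprr2h, chr3:92432332-92432581 (plus) for Sprr2k and chr3:92573736-92573985 (minus) for Ivl.
Sprr1a: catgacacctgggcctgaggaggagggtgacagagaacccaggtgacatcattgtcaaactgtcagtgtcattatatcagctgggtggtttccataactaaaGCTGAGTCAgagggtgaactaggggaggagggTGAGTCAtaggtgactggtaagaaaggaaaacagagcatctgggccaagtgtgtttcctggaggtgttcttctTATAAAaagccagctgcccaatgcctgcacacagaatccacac
Sprr1b: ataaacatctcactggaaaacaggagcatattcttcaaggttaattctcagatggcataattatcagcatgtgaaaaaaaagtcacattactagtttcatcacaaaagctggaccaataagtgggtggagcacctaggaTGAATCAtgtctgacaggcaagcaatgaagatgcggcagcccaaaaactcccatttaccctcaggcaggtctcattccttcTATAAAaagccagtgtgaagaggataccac
Sprr2h: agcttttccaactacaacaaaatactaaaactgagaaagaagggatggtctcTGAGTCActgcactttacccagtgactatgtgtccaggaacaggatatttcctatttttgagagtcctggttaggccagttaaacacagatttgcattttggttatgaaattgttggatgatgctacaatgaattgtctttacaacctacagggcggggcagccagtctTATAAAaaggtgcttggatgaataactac
Sprr2k: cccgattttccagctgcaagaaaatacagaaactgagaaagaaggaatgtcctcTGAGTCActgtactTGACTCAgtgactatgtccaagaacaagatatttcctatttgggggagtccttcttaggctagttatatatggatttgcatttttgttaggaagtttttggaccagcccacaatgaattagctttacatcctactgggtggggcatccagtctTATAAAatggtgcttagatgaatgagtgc
Ivl: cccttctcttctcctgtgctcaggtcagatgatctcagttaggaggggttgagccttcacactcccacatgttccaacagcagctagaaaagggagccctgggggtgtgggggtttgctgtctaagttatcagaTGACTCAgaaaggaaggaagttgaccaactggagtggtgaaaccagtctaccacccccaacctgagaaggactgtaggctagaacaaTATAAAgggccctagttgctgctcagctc

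Each of these 5 windows holds an AP-1 match and a TATA box. The TATA box lies 29 to 24 bases before the start in Sprr2h, Sprr2k and Ivl, 30 to 25 bases before it in Sprr1b, and 43 to 38 bases before it in Sprr1a. AP-1 matches begin 198 bases before the start in Sprr2h, 196 and 182 bases before it in Sprr2k, 146 and 116 bases before it in Sprr1a, 116 bases before it in Ivl and 111 bases before it in Sprr1b. The upstream AP-1 match of Sprr1a overlaps the antioxidant response element match, which begins 148 bases before the start. All these distances are from the start in the RefSeq promoter table. In the GENCODE annotation Sprr1a and Sprr1b begin inside their windows, at 92485895 and 92438789, so their distances from that start are shorter.

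The 30 listed genes with a promoter entry include Flg, whereas Krt1, Tgm2, Ppl, Evpl, Calml3, Crct1, Endou and Cst6 had no entry. Of them 14 held an AP-1 match, or 46.7%, beside 7.82% of the 27025 genes in the table. A TATA box was present in 15 of the 30, or 50%, beside 8.94% of genes. The antioxidant response element core was present in 3 of the 30 (Sprr1a, Casp14 and Scel), or 10%, beside 11.5% of genes. The short KLF motif CACCC, searched on both strands and not capitalised, was in 20 of the 30, or 66.7%, beside 54.5% of genes. Of 14 listed genes with a promoter entry on chromosome 3, not counting Flg, 9 held an AP-1 match and 10 a TATA box. Flg, on the same chromosome, held both. Of the 7 small proline-rich genes, 5 held an AP-1 match and 6 a TATA box. Their sequences are related, so the listed genes are not independent observations of a motif. These are matches of letters in a short window, with no measurement of binding.

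The 15 listed genes of chromosome 3 that had a row span 92080271 to 93449077, or 1369 kb. Of these, 7 reached 1 CPM. In ARPC4 ko 6 of the 7 were lower than wt, and in Nrf2-EGFP 5 of the 7. On other chromosomes 8 of 17 measured members were lower in ARPC4 ko, and 8 of 17 in Nrf2-EGFP. Among all genes compared, on any chromosome, 2.06% were lower in ARPC4 ko and 2.05% in Nrf2-EGFP. Ivl encodes involucrin, an early scaffold of the envelope. It had 2.43 CPM in ARPC4 ko, 3.38 CPM in Nrf2-EGFP and 7.07 CPM in wt. It was 2.91-fold lower in ARPC4 ko (2.15 to 4). In Nrf2-EGFP it was 2.09-fold below wt (1.60 to 2.76), with a log2 fold of -0.96 that just missed the rule. Crct1, a cysteine-rich protein gene of the cluster, had 2 counts in ARPC4 ko, 2 in Nrf2-EGFP and 29 in wt. It was 15.7-fold lower in ARPC4 ko (3.97 to 136) and 16-fold lower in Nrf2-EGFP (4.05 to 139), and neither fold passed with 2 CPM added (-0.66 in both).

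Tchh encodes trichohyalin, an S100-fused protein of the hair follicle inner root sheath and other tough epithelia. It had 24.4 CPM in ARPC4 ko, 21.5 CPM in Nrf2-EGFP and 44.1 CPM in wt, so both other libraries lay at a similar distance below wt. Its log2 fold was -0.84 in ARPC4 ko, which did not pass, and -1.02 in Nrf2-EGFP, which did (2.05-fold lower, 1.84 to 2.28), though not with 2 CPM added (-0.97). The other S100-fused members with a row stayed below 1 CPM, with 0 counts of Flg2 and Hrnr in each library, and 0 counts of Rptn (repetin) in ARPC4 ko, 0 in Nrf2-EGFP and 11 in wt.

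The plakins and annexin A1, which lie under the plasma membrane and scaffold the early envelope, were abundant and differed less. Ppl (periplakin) had 145 CPM in ARPC4 ko, 199 CPM in Nrf2-EGFP and 233 CPM in wt. Evpl (envoplakin, the partner of periplakin) had 86.9, 128 and 150 CPM in the same order of libraries. Both ranked ARPC4 ko below Nrf2-EGFP and Nrf2-EGFP below wt. In ARPC4 ko, Ppl was 1.61-fold (1.54 to 1.68) and Evpl 1.73-fold (1.64 to 1.83) below wt, and in Nrf2-EGFP both were 1.17-fold below it, so none of these passed. Anxa1 had 1664 CPM in ARPC4 ko, 2061 CPM in Nrf2-EGFP and 2032 CPM in wt. Its ratio to wt was 0.82 in ARPC4 ko (0.81 to 0.83) and 1.01 in Nrf2-EGFP (1 to 1.03).

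Of the transglutaminases, which form the crosslinks of the envelope, Tgm1 and Tgm2 lay above wt and Tgm3 below it in both other libraries. Tgm1, the membrane-anchored enzyme mutated in lamellar ichthyosis, had 26.8 CPM in ARPC4 ko, 15.6 CPM in Nrf2-EGFP and 11.7 CPM in wt. It was 2.30-fold higher in ARPC4 ko (1.99 to 2.67), and 1.34-fold above wt in Nrf2-EGFP (1.14 to 1.57), where it did not pass. Tgm2, the widely expressed tissue transglutaminase, had a different order, with 7.28 CPM in ARPC4 ko, 12.9 CPM in Nrf2-EGFP and 4.18 CPM in wt. It was 3.08-fold higher in Nrf2-EGFP (2.44 to 3.92), and 1.74-fold above wt in ARPC4 ko (1.35 to 2.26), without passing. Exons of both genes overlap exons of genes on the opposite strand (Gm49067 for Tgm1, Gm20412 and Rprd1b for Tgm2), and whether the counting used strand is not stated. The same holds for Krt10 (Gm11940) and Lypd3 (Gm26550), and exons of Sbsn overlap those of Tmem147os on its own strand, so the values of these 5 genes are less certain. Tgm3, the epidermal enzyme activated by proteolysis, stayed below 1 CPM, with 6 counts in ARPC4 ko, 5 in Nrf2-EGFP and 18 in wt. Its ratio to wt was 0.31 in ARPC4 ko (0.10 to 0.81) and 0.25 in Nrf2-EGFP (0.07 to 0.70). Tgm5 had 1 count in ARPC4 ko, 0 in Nrf2-EGFP and 1 in wt.

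The suprabasal keratins, the first sign of leaving the basal layer, were low in each library. Krt10 had 3.29 CPM in ARPC4 ko, 3.22 CPM in Nrf2-EGFP and 4.62 CPM in wt, and did not pass the rule in either comparison with wt. Its partner Krt1 had 1 count in ARPC4 ko, 0 in Nrf2-EGFP and 30 in wt, the last corresponding to 1.33 CPM. Krt1 was 32.4-fold lower in ARPC4 ko than in wt, with an interval of 5.39 to 1323, and at least 11-fold lower in Nrf2-EGFP, taking 3 counts as the limit for a library at 0 and the wt count as measured. With counting error in both libraries, the interval of that ratio reached up to 0.118 times wt. With 2 CPM added in place of 0.5, neither fold of Krt1 passed (-0.71 and -0.74 on the log2 scale).

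**Figure D2:**
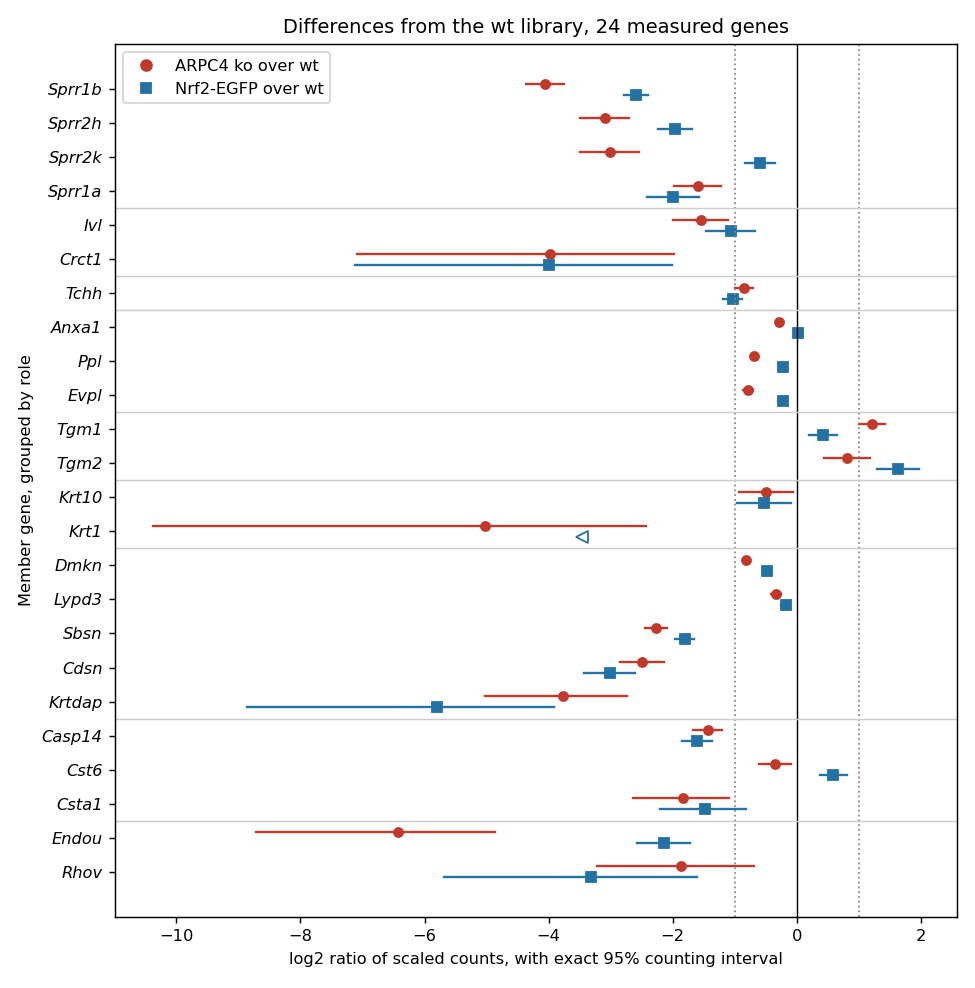
Log2 ratio of scaled counts to wt (without pseudocount) for the 24 measured genes, in ARPC4 ko (circles) and Nrf2-EGFP (squares), with exact 95% counting intervals as lines. The open triangle places Krt1 in Nrf2-EGFP, which had 0 counts, at the limit of 3 counts, the solid line is the wt level and dotted lines mark 2-fold. Sprr1b lies furthest left among genes with narrow intervals in ARPC4 ko, and Tgm1 and Tgm2 lie right of the wt level in both.

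Among the secreted and adhesion proteins of the suprabasal layers, 3 of 5 were lower in each comparison with wt. Of all genes compared, 2.06% were lower in ARPC4 ko and 2.05% in Nrf2-EGFP. Sbsn (suprabasin) had 13.9 CPM in ARPC4 ko, 19.2 CPM in Nrf2-EGFP and 67.3 CPM in wt. It was 4.82-fold lower in ARPC4 ko (4.29 to 5.44) and 3.50-fold lower in Nrf2-EGFP (3.15 to 3.88). Cdsn, which encodes corneodesmosin, the adhesive protein of corneodesmosomes, had 3.29 CPM in ARPC4 ko, 2.29 CPM in Nrf2-EGFP and 18.5 CPM in wt. It was 5.62-fold lower in ARPC4 ko (4.42 to 7.23) and 8.06-fold lower in Nrf2-EGFP (6.10 to 10.8).

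Krtdap, a small secreted protein gene of differentiating keratinocytes, lies beside Sbsn and Dmkn on chromosome 7 (30751471 to 30791097 for the 3 genes), and these neighbours differed from wt by unequal amounts. Krtdap had 8 counts in ARPC4 ko, 2 in Nrf2-EGFP and 101 in wt. It was 13.6-fold lower in ARPC4 ko (6.67 to 32.5) and 55.8-fold lower in Nrf2-EGFP (15.1 to 467). Dmkn (dermokine) had 214 CPM in ARPC4 ko, 272 CPM in Nrf2-EGFP and 379 CPM in wt. It was 1.77-fold (1.71 to 1.83) and 1.39-fold (1.35 to 1.43) below wt in those libraries and did not pass. Lypd3, a membrane-anchored protein of suprabasal cells, had 101 CPM in ARPC4 ko, 112 CPM in Nrf2-EGFP and 127 CPM in wt, the smallest spread between libraries of these 5 genes.

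The protease and inhibitor genes divided. Casp14, the caspase that takes part in filaggrin processing, had 8.93 CPM in ARPC4 ko, 7.93 CPM in Nrf2-EGFP and 24.2 CPM in wt. It was 2.71-fold lower in ARPC4 ko (2.31 to 3.19) and 3.05-fold lower in Nrf2-EGFP (2.59 to 3.61). Csta1, a stefin-type inhibitor of cysteine proteases, had 20 counts in ARPC4 ko, 26 in Nrf2-EGFP and 66 in wt, and was 3.57-fold (2.14 to 6.21) and 2.81-fold (1.76 to 4.60) lower. With 2 CPM added its log2 folds were -0.81 and -0.70, and neither passed. Cst6, the cystatin M/E that inhibits cathepsins in the cornified layer, had 9.91 CPM in ARPC4 ko, 18.9 CPM in Nrf2-EGFP and 12.6 CPM in wt. Nrf2-EGFP was thus the high library for Cst6, at 1.5 times wt (1.29 to 1.74), and ARPC4 ko the low one, at 0.78 times wt (0.66 to 0.94), neither past the rule.

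Of the remaining measured genes, Endou, an endoribonuclease gene, had 3 counts in ARPC4 ko, 60 in Nrf2-EGFP and 239 in wt. The 3 libraries were well separated. It was 86.1-fold lower in ARPC4 ko (29.1 to 421) and 4.40-fold lower in Nrf2-EGFP (3.30 to 5.94). Rhov, which encodes a small GTPase, had 8 counts in ARPC4 ko, 3 in Nrf2-EGFP and 27 in wt, and was 3.65-fold (1.61 to 9.29) and 9.94-fold (3.06 to 51.2) lower. Rhov lost its place by the rule in ARPC4 ko, with a log2 fold of -0.99, when libraries were scaled by total counts, and in both comparisons with 2 CPM added (-0.46 in ARPC4 ko and -0.59 in Nrf2-EGFP).

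The 13 genes below 1 CPM in each library are given as counts. Lor (loricrin, the major protein of the mature envelope) had 21 counts in ARPC4 ko, 20 in Nrf2-EGFP and 12 in wt, and the interval of its ratio to wt included 1 in both comparisons (0.76 to 3.61 in ARPC4 ko). Cnfn (cornifelin) had 0, 1 and 6 counts in the same order, Scel (sciellin) 0, 2 and 6, Lce3b 0, 0 and 1, and Calml3 (a calmodulin-like protein) 1, 0 and 1. The limit for a library at 0 is 3 counts, which is 0.123 CPM in ARPC4 ko, 0.121 CPM in Nrf2-EGFP and 0.133 CPM in wt, so Cnfn, Scel, Lce3b and Calml3 were at or near the limit of this depth, whereas Lor was above it in each library. The threshold of 1 CPM fell between Rhov, Crct1 and Krt1, at 1.20, 1.29 and 1.33 CPM in wt, and Lor, at 0.864 CPM in ARPC4 ko, and Tgm3, at 0.800 CPM in wt.

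The ARPC4 ko and Nrf2-EGFP libraries were also compared directly. Of the 24 measured genes, 3 were lower in ARPC4 ko and 0 were higher, beside 0.961% lower and 2.01% higher among the 11865 genes compared. The median log2 fold was -0.27, against -0.02 for all genes compared. Sprr2k was 5.34-fold lower in ARPC4 ko than in Nrf2-EGFP (3.86 to 7.54), Sprr1b 2.75-fold (2.16 to 3.52) and Endou 19.6-fold (6.38 to 97.5). Sprr2h, at 2.19-fold lower (1.62 to 3), had a log2 fold of -0.998, just short of the limit, and was not counted. For Casp14 the ratio was 1.13 (0.92 to 1.37), for Krt10 1.02 (0.74 to 1.41), for Sprr1a 1.32 (0.93 to 1.87) and for Ivl 0.72 (0.51 to 1.01), intervals that include 1. Tgm1 was 1.72-fold above Nrf2-EGFP in ARPC4 ko (1.51 to 1.95), while Tgm2 was 1.77-fold (1.47 to 2.14) and Cst6 1.91-fold (1.63 to 2.24) below it, none of them past the rule.

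**Figure D3:**
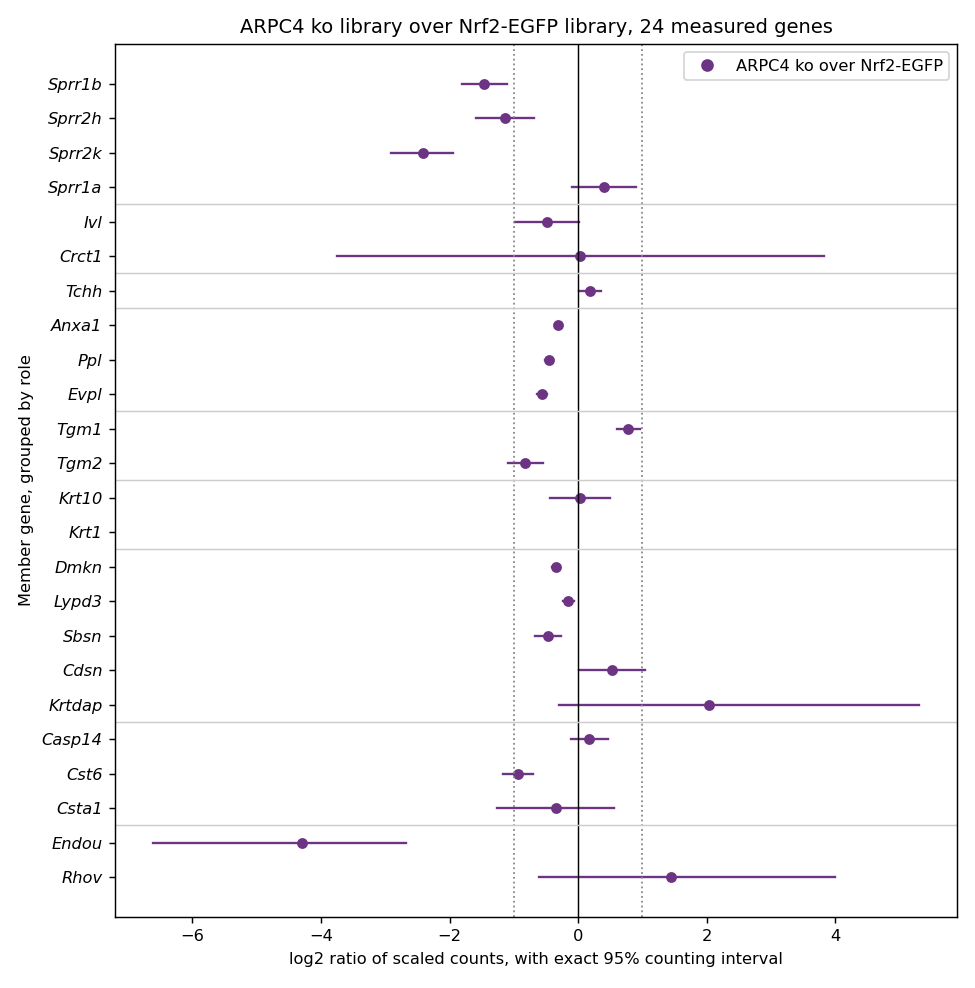
Log2 ratio of scaled counts of the ARPC4 ko library over the Nrf2-EGFP library for the measured genes, with exact 95% counting intervals as lines. The solid line is an equal level, dotted lines mark 2-fold, and Krt1 has no point because it had 1 count in ARPC4 ko and 0 in Nrf2-EGFP. Sprr2k and Endou lie furthest left, and the wide intervals of Crct1, Krtdap and Rhov rest on few counts.

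Levels were compared between genes as CPM per kb of annotated exons. In wt, Anxa1 stood highest at 698 CPM per kb, followed by Dmkn at 173, Lypd3 at 77.2, Sprr1b at 76.4, Ppl at 33.8 and Sprr2h at 29.4 CPM per kb. The levels of Lypd3 and Sprr1b in wt had overlapping counting intervals, whereas the other neighbours in that order did not. In ARPC4 ko the first 5 by level were Anxa1 at 572, Dmkn at 97.5, Lypd3 at 61.2, Ppl at 21.0 and Evpl at 13.6 CPM per kb, and Tgm1 came next at 8.48 CPM per kb. Sprr1b was at 4.61 CPM per kb in that library and 12.7 CPM per kb in Nrf2-EGFP. In Nrf2-EGFP, Sprr2k was the highest of the small proline-rich genes per length, at 15.2 CPM per kb, with an interval (13.3 to 17.2) that overlapped that of Sprr1b (11.2 to 14.3). Krt1 was lowest of the 24 in wt, at 0.302 CPM per kb.

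Other genes of the same program were read from a list of 60 further envelope, suprabasal and junction genes, of which 20 reached 1 CPM. In ARPC4 ko 8 were lower and 0 higher than in wt (median log2 fold -0.74). In Nrf2-EGFP 7 were lower and 1 higher (median -0.59). Among all genes compared, 2.06% were lower and 4.7% higher in ARPC4 ko, and 2.05% and 3.57% in Nrf2-EGFP. Lgals7, encoding the stratified-epithelium lectin galectin 7, had 39.4 CPM in ARPC4 ko, 93.9 CPM in Nrf2-EGFP and 250 CPM in wt. Ly6d had 20.7, 40.1 and 123 CPM in the same order, Fabp5 (a fatty acid-binding protein) 34.6, 39.6 and 156 CPM, and Aqp3 (a water and glycerol channel) 37.7, 44.6 and 122 CPM. These 4 were lower in each comparison with wt, by 2.66-fold to 6.33-fold. Gsdma had 2 counts in ARPC4 ko, 1 in Nrf2-EGFP and 38 in wt, Sprr2g 1, 1 and 25, and Stfa3 11, 1 and 28, of which Stfa3 passed in Nrf2-EGFP but not in ARPC4 ko. The gene higher in Nrf2-EGFP was Lce1g, named after its values were seen. It had 6 counts in ARPC4 ko, 28 in Nrf2-EGFP and 5 in wt. Gsdma, Sprr2g and Stfa3 reached 1 CPM in wt alone, and Lce1g in Nrf2-EGFP alone. These genes thus entered through the library in which they are high.

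Of 32 listed envelope proteases, inhibitors and barrier lipid genes, 21 reached 1 CPM. Of these, 6 were lower and 0 higher in each comparison with wt. The shares over all genes compared were 2.06% lower and 4.7% higher in ARPC4 ko, and 2.05% and 3.57% in Nrf2-EGFP. Spink5, the inhibitor lost in Netherton syndrome, had 14 counts in ARPC4 ko, 13 in Nrf2-EGFP and 252 in wt. Klk7, a kallikrein of desquamation that it restrains, had 3, 5 and 36 counts in that order. Spink5 and Klk7 reached 1 CPM in wt alone, so they too entered through the library in which they are high. Asprv1, the protease that cleaves filaggrin, had 2.18 CPM in ARPC4 ko, 3.02 CPM in Nrf2-EGFP and 16.1 CPM in wt, and Abca12, the lipid transporter of lamellar granules, 35.1, 60.1 and 184 CPM. Ctsc (cathepsin C) was also lower in both. Cers3 (a ceramide synthase) was lower in ARPC4 ko (2.70-fold, 2.50 to 2.91), and Sult2b1 (a cholesterol sulfotransferase) in Nrf2-EGFP (2.04-fold, 1.81 to 2.31).

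Of 32 transcription regulators of keratinocyte differentiation, 31 reached 1 CPM. In ARPC4 ko 5 were lower and 0 higher (median log2 fold -0.15), and in Nrf2-EGFP 4 were lower and 1 higher (median -0.35). Over all genes compared, 2.06% were lower and 4.7% higher in ARPC4 ko, and 2.05% and 3.57% in Nrf2-EGFP. Zfp750, which promotes terminal differentiation, had 6.66 CPM in ARPC4 ko, 1.37 CPM in Nrf2-EGFP and 16.5 CPM in wt. It was 2.47-fold (2.05 to 2.99) and 12.0-fold (8.45 to 17.6) lower than in wt, and 4.87-fold higher in ARPC4 ko than in Nrf2-EGFP (3.35 to 7.27). Grhl1 had 15.1 CPM in ARPC4 ko, 10.1 CPM in Nrf2-EGFP and 33.9 CPM in wt, and Maf 7.20, 7.08 and 16.8 CPM, and both were lower in each comparison. Cebpa was lower in ARPC4 ko, with 3.54 CPM, 4.63 CPM in Nrf2-EGFP and 9.16 CPM in wt. Satb1, with 67, 75 and 28 counts, was the regulator higher in Nrf2-EGFP.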

How the data were processed

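Strand-specific mRNA libraries were sequenced as single-end reads of 65 bp, per the labels' protocols. The submitters' processing notes name TopHat2 2.1.0, Bowtie 1.1, HTSeq and mm10, without settings or annotation release. The authors deposited raw counts per gene for each library, 1 per group. Non-gene totals (8.22% of entries in ARPC4 ko, 8.48% in Nrf2-EGFP, 9.08% in wt) were left out.

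Symbols, positions and exon lengths came from GENCODE M21 (GRCm38, the mm10 build). Libraries were scaled with TMM in edgeR 4.0.16 (R 4.3.3), with factors of 1.06, 0.966 and 0.981 in the order above. With 1 library per group no count test was possible. Exact conditional 95% intervals (Clopper-Pearson, scipy 1.17.1) replaced it. The steps were run on simulated Poisson counts, the counting error that the intervals assume. That simulation held no spread between cultures, so it cannot check the rule against such spread. Intervals and limits treat reads as independent molecules, which reads lacking molecular identifiers are not. Alternatives were scaling by total counts or DESeq2 1.42.0 size factors, other pseudocounts, other filters, and transcript length. Members, lists and rules were chosen with earlier results of these data known. Each member is reported, and from each further list at most 6 genes past the rule per comparison, by size of log2 fold. Krt5, Krt14, Arpc4 and Nfe2l2 are always named. A gene that met this rule is not reported here.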

Additional observations from a re-analysis of the deposited data

How the results depend on the processing

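No paired analysis was possible because each group has 1 library. For the same reason no library could be left out. The count of members lower in ARPC4 ko than in wt was 7 among the 16 that reached 10 CPM, beside 1.3% of all genes at that filter, and the median log2 fold was -0.83 there, -0.80 with a pseudocount of 2 CPM and -0.81 with no filter. In Nrf2-EGFP against wt, 8 members were lower with a pseudocount of 2 CPM and 7 at the 10 CPM filter, beside 0.877% and 0.987% of all genes, with medians of -0.68 and -0.52, and the median was -0.54 with no filter. Sprr2h, Sprr2k, Cdsn, Casp14 and Endou reached 10 CPM in wt alone, so they entered that filter through the library in which they are high. Pseudocounts and filters act on genes with few counts by construction. Scaling by total counts moved the median of all genes in ARPC4 ko against wt to 0.09 and that over Nrf2-EGFP to 0.11. Of 72 log2 folds of 24 members in 3 comparisons, 9 no longer passed with a pseudocount of 2 CPM (Krt1, Crct1, Csta1 and Rhov in both comparisons with wt, and Tchh in Nrf2-EGFP). With scaling by total counts 1 no longer passed (Rhov), and with a pseudocount of 0.1 CPM 2 more passed (Ivl in Nrf2-EGFP against wt and Sprr2h between the other libraries). With the length of the longest transcript, levels per kb in wt moved beyond the counting interval for 7 of 24 genes, Anxa1 to 1214 CPM per kb.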
